A study of Mus musculus with 60 samples.

Results

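The Schlafen genes Slfn1, Slfn2, Slfn3, Slfn4, Slfn5, Slfn8 and Slfn9 were read in spleen leukocytes of young mice on the Affymetrix mouse 430A and 430B expression arrays. The genes were chosen with earlier results of these data known. Every probe set whose annotation names 1 of them was taken, whatever its signal. This gave 12 probe sets for 7 genes, of 45037 probe sets and 18193 named genes on the arrays. Slfn1 and Slfn9 have 2 probe sets each, Slfn5 has 3, and 1450322_s_at is shared by Slfn4 and Slfn3 and was given to neither. The arrays came from female mice of 3 strains at 2 ages, with 5 mice in each group. NOD mice develop autoimmune diabetes spontaneously, NON mice are a related strain that resists it, and C57 (C57BL/6) mice are a more distant control. The groups were NOD, NON and C57 mice of 4 weeks, the age at which leukocytes first gather around NOD islets, and of 2 weeks, before that. The cells were total spleen leukocytes taken directly from untreated mice, without sorting, stimulation or culture. No group carries an engineered allele.

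Schlafen proteins are a rodent-expanded family first described in mouse thymocytes and named for the sleep-like growth arrest that their expression can impose on lymphocytes. The short members Slfn1 and Slfn2 lack a helicase region, Slfn3 and Slfn4 are of intermediate length, and Slfn5, Slfn8 and Slfn9 are long members that carry one. Several of the genes are induced by type I interferon in mouse leukocytes, and mice with a mutant Slfn2 fail to keep T cells and monocytes quiescent.

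All 7 genes lie in a cluster on chromosome 11, between positions 82951349 and 83215154 of GRCm38.p6, in the order Slfn5, Slfn9, Slfn8, Slfn2, Slfn1, Slfn4 and Slfn3. RefSeq promoter sequences were found for all 7 genes. The 250 bases before the transcription start were searched on both strands for GAAANNGAAA, the core of the interferon-stimulated response element, and for TTCNNNGAA, the core of the gamma-activated site. GAAANNGAAA was matched in 3 of the 7 genes, Slfn5, Slfn8 and Slfn9, and in 2.98% of all 32851 promoter windows of the same length. TTCNNNGAA was matched in 0 of the 7 genes and in 7.02% of all windows. The promoters of Slfn8 and Slfn9, the long members that carry the match near the start, and of Slfn5 are given below beside that of Slfn1, which has no match. Each is written 5′ to 3′ in the direction of the gene and ends at the base before the start; capitals mark the match.
Slfn1, chr11:83116570-83116819, plus strand: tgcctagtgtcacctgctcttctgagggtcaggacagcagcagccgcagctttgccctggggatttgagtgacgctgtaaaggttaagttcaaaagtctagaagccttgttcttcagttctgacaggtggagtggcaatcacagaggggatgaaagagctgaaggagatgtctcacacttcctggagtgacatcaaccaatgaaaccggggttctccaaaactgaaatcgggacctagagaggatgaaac
Slfn8, chr11:83020811-83021060, minus strand: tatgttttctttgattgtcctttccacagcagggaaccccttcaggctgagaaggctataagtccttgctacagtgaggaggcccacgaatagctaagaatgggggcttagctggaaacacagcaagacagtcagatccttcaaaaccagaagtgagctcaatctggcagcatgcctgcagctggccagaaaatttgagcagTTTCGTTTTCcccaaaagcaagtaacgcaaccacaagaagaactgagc
Slfn9, chr11:82991831-82992080, minus strand: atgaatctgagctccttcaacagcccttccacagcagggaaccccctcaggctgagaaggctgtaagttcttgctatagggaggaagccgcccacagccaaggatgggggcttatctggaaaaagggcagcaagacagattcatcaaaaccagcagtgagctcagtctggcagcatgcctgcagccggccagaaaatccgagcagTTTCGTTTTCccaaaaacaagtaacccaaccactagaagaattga
Slfn5, chr11:82951852-82952101, plus strand: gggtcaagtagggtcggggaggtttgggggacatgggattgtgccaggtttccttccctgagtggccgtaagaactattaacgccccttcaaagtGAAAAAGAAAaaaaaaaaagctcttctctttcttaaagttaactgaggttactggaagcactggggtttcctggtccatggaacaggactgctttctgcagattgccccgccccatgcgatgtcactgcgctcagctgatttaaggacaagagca
The matched letters begin 155 bases before the start in Slfn5, 48 bases before the start shown in Slfn8 and 45 bases before it in Slfn9. Slfn8 has a further annotated start, from which the same match lies 136 bases upstream. Slfn8 and Slfn9 hold the same 10 letters there, TTTCGTTTTC, which is the motif in reverse complement in the direction of the gene. In Slfn5 the motif reads forward in the direction of the gene. The Slfn8 and Slfn9 sequences are alike around the match, so their matches do not count as independent. A match describes the sequence and was not tied to any signal.

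Levels are MAS 5.0 signals, the Affymetrix summary of a probe set's brightness, on a linear scale without a unit. Apart from the choice of a gene's brightest probe set, Schlafen levels are compared only within a probe set. Sums over cell type markers add the signals of different probe sets, so the brightest markers weigh most in them. A probe set was tested if its signal reached 50 in at least 5 of the 30 mice, which 38293 probe sets and 11 of the 12 Schlafen probe sets did. The exception was Slfn3 1421644_at, whose signals lay between 1.3 and 40.7 in all 30 mice, so that no difference in Slfn3 was detectable with it. Slfn1 1418612_at, Slfn2 1450165_at, Slfn8 1451655_at, Slfn5 1458458_at and Slfn5 1442640_at reached 50 in all 30 mice and Slfn4 1427102_at in 29 of them. Probe set 1450322_s_at reached it in only 9 mice. The 430A probe set 1451655_at is annotated as Slfn8 in the table used here. The study names it SLFN13, in a supplementary list of transcripts that it found to differ by strain or age. Slfn8 and Slfn9 are close relatives, and cross-hybridization between them was not tested.

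The arrays were of uneven quality. The Gapdh 3′ to 5′ signal ratio, which is high where RNA is degraded, ran from 0.744 to 3.997 and was over 2 in 5 mice. All 5 were controls, at 3.997, 3.153 and 2.307 in NON mice and 2.174 and 2.404 in C57 mice. In NOD mice the ratio was at most 1.063 at 2 weeks and 1.302 at 4 weeks, so RNA quality was not even between strains. The median r of a mouse with its own group ran from 0.739 to 0.876.

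Slfn1 1418612_at, for the member that blocks thymocyte growth when overexpressed in mice, had its highest mean in C57 mice of 4 weeks and its lowest in NON mice of 2 weeks. It averaged 402.9 ± 84.3 in NOD, 411.7 ± 51.8 in NON and 617.0 ± 53.6 in C57 mice of 4 weeks, and 223.1 ± 50.3 in NOD, 165.5 ± 50.9 in NON and 424.5 ± 103.4 in C57 mice of 2 weeks (SD, n = 5 each). C57 mice of 4 weeks stood above every other mouse. C57 mice of 2 weeks and NON and NOD mice of 4 weeks were neighbours whose ranges overlapped, and NOD and NON mice of 2 weeks were lowest and also overlapped. Slfn8 1451655_at had nearly the same order, with means of 425.1 ± 147.5 in NOD, 463.2 ± 77.7 in NON and 590.9 ± 79.2 in C57 mice of 4 weeks and of 247.1 ± 47.2, 180.92 ± 49.96 and 381.1 ± 182.7 in NOD, NON and C57 mice of 2 weeks, and every neighbour in its order overlapped the next. Slfn2 1450165_at averaged 1270 ± 281 in NOD, 1181 ± 415 in NON and 1794 ± 706 in C57 mice of 4 weeks, against 1038 ± 368, 859.0 ± 256.2 and 1284 ± 329 at 2 weeks. Its neighbouring groups overlapped throughout.

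**Figure D1:**
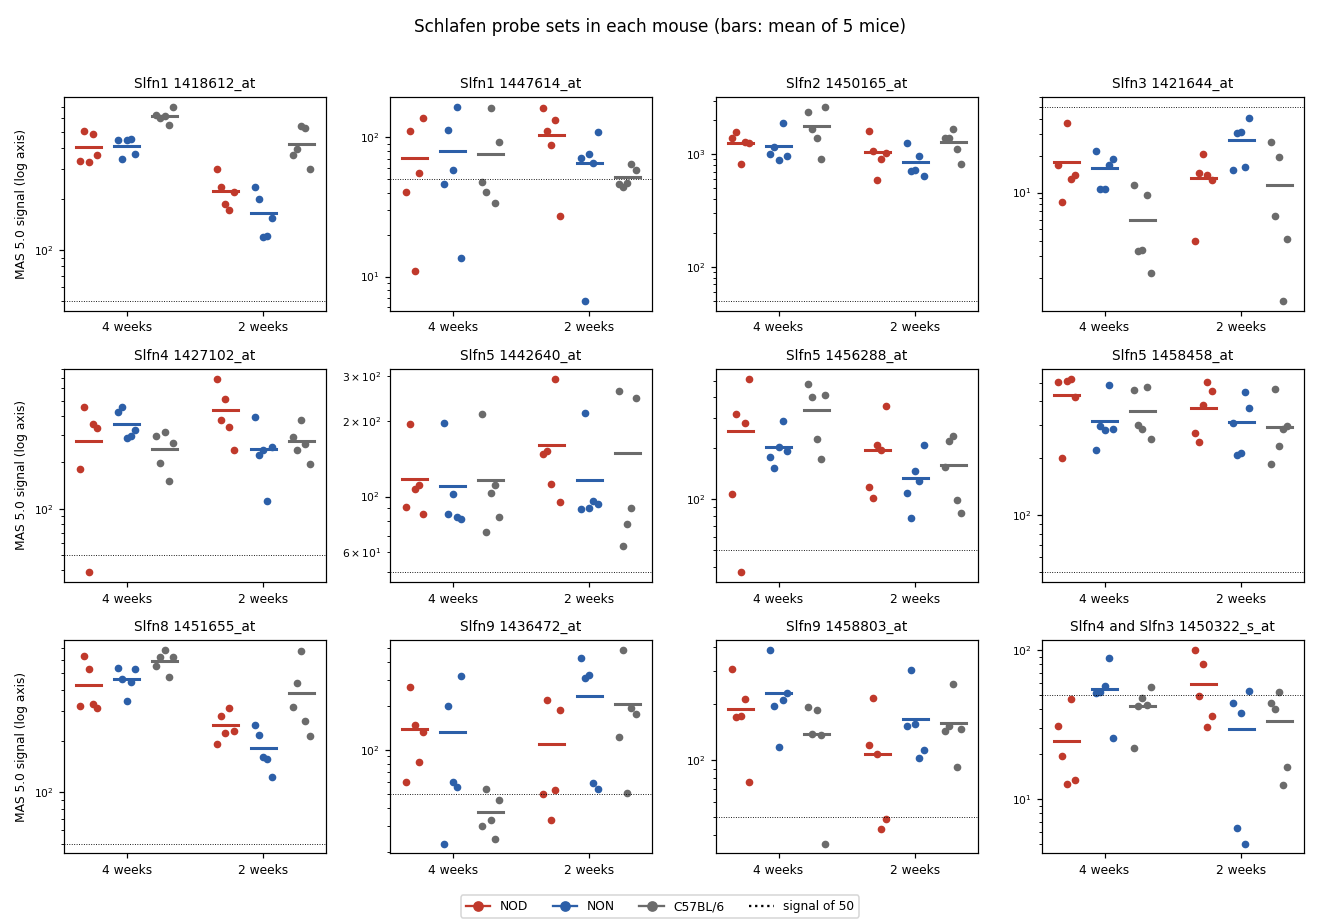
MAS 5.0 signals (log axis) of the 12 Schlafen probe sets, 1 point per mouse, with NOD, NON and C57BL/6 mice from left to right at 4 weeks and at 2 weeks; bars are means of 5 mice and the dotted line is a signal of 50. Slfn1 1418612_at lies between 549.6 and 697.6 in C57BL/6 mice of 4 weeks, above all other mice, and Slfn3 1421644_at never reaches 50.

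The first question was whether the strains differed at 2 weeks of age. At that age 1 Schlafen probe set did: Slfn1 1418612_at was lower in NON than in C57 mice. The other Slfn1 probe set, 1447614_at, was not called. Signals of 1418612_at were 118.8, 120.1, 154.4, 198.9 and 235.3 in NON mice, against 300.0, 363.7, 396.9, 524.0 and 538.0 in C57 mice. All 5 NON mice lay below all 5 C57 mice, as was so for 2.44% of all probe sets. The difference, NON minus C57, was -1.32 ± 0.24 on the log2(signal + 10) scale (SE, 95% interval -1.83 to -0.81, adjusted p = 0.0105, limma with Benjamini-Hochberg adjustment over all probe sets tested), and the ratio of the mean signals was 0.39. It was the only one of the 11 Schlafen probe sets called in this comparison, where 1.56% of all probe sets tested were called. Over the 3 strains together Slfn1 was again the 1 Schlafen probe set called of 11 (F-test in limma, adjusted p = 0.0195, against 1.66% of all probe sets called). At an unadjusted p below 0.05 there were 2 Schlafen probe sets in NON minus C57, against 13.9% of all probe sets, and 2 in the F-test, against 14.1%. That F-test call was lost in 3 of 26 alternatives, among them without C57 2 weeks replicate 3 (adjusted p = 0.0634) and without C57 2 weeks replicate 4 (adjusted p = 0.066), whereas the NON minus C57 call was kept without any 1 mouse (adjusted p between 0.00868 and 0.0376) and without the 5 mice of a Gapdh ratio over 2 (-1.51, adjusted p = 0.0129, limma).

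Markers of several cell types differed in the same comparison. The summed signal of the 8 T cell markers on the arrays, of the 9 listed, ran from 1402 to 2670 in NON mice and from 3918 to 7715 in C57 mice of 2 weeks. Cd8a, Cd247 and Cd3d, which encode a coreceptor and chains of the T cell receptor complex, were called lower in NON mice (log2 differences -1.70, -1.18 and -1.66, adjusted p = 0.0046, 0.0167 and 0.0345, limma), and the list's median was -1.20, against 0.03 over all probe sets. Of 6 erythroid markers tested, of 8 listed, 5 had log2 differences above 0, and Klf1, an erythroid transcription factor gene, was called higher in NON mice (2.28 ± 0.48, SE, adjusted p = 0.0266, limma). Summed erythroid signals spanned 2448 to 11535 for NON mice, against 1019 to 2153 for C57 mice, and the list's median was 1.70. All 7 B cell markers and all 3 pan-leukocyte markers tested lay below 0, with medians of -0.53 and -0.58 and 0 called. Summed pan-leukocyte signals spanned 4867 to 14644 for NON mice, against 11871 to 13829 for C57 mice. For monocyte and macrophage markers the sums were higher in NON mice, at 15996 to 17343, against 12136 to 14637 in C57 mice. The part of these cell types in the Slfn1 difference was not tested. In RNA from unsorted spleen, fewer cells of a type and less RNA in each cell cannot be told apart. The other strong difference of that pair was Slfn8, at -0.96 ± 0.28 (SE), whose adjusted p of 0.121 missed the threshold in limma. Its signals were 122.5, 157.3, 161.5, 216.0 and 247.3 in NON mice, against 214.7, 263.2, 317.0, 438.6 and 671.8 in C57 mice, and these overlapped.

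NOD mice of 2 weeks did not differ detectably from either control strain in any Schlafen probe set after adjustment. None of the 11 was called in NOD minus NON (0.546% of all probe sets called), NOD minus C57 (0.841%) or NOD minus the mean of the controls (0.499%), and 1 probe set in each had an unadjusted limma p below 0.05, a share that was 9.45%, 11.7% and 9.44% over all probe sets. For NOD minus C57 it was Slfn1. Its signals in NOD mice were 172.4, 186.4, 221.1, 234.9 and 300.9, and the highest of these was level with the lowest C57 mouse, so the groups just overlapped. The log2 difference was -0.89 ± 0.24 (SE, 95% interval -1.40 to -0.38, adjusted p = 0.12, limma). It passed in only 1 of 25 alternatives, when all 30 mice were fitted together (adjusted p = 0.0186, limma). For the other comparisons it was Slfn4, an interferon-inducible member expressed in mouse myeloid cells. Slfn4 1427102_at had signals of 239.2, 338.1, 375.5, 513.5 and 693.6 in NOD mice, against 111.8, 222.6, 239.6, 250.4 and 390.1 in NON mice and 194.1, 240.4, 261.8, 290.7 and 373.6 in C57 mice. NOD minus the control mean was 0.70 ± 0.28 (SE, adjusted p = 0.446, limma) and NOD minus NON was 0.81 ± 0.32 (SE, adjusted p = 0.424, limma), with overlapping groups in both.

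**Figure D2:**
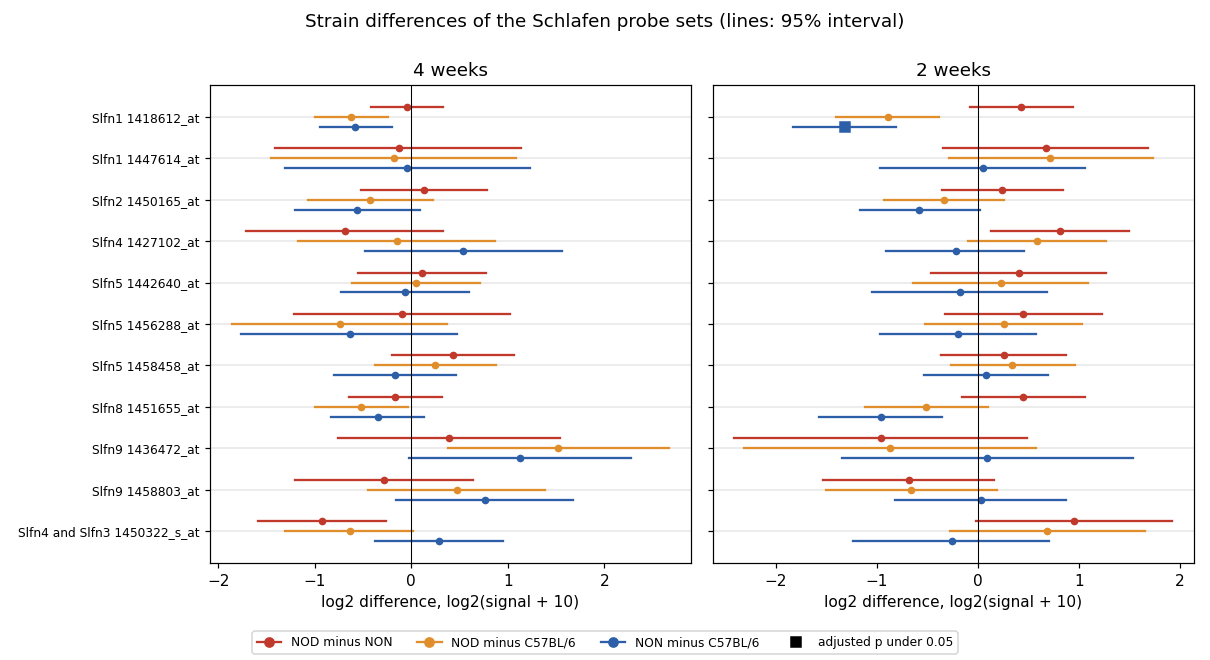
Log2 differences between strains, on the log2(signal + 10) scale, for the 11 tested Schlafen probe sets at 4 weeks and at 2 weeks; points are estimates, lines are 95% intervals, and a square marks an adjusted p under 0.05. The only square is Slfn1 1418612_at in NON minus C57BL/6 at 2 weeks, at -1.32.

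The same strain comparisons were made at 4 weeks of age, when infiltration of the islets begins. None of the 11 Schlafen probe sets was called: 0 in NOD minus NON (0.582% of all probe sets called), 0 in NOD minus C57 (1.13%), 0 in NOD minus the control mean (0.804%), 0 in NON minus C57 (0.794%) and 0 in the F-test over strains (1.51%, limma). At an unadjusted p below 0.05 in limma the counts were 1, 3, 2, 1 and 3 probe sets, against 10.7%, 13.0%, 12.7%, 9.71% and 13.4% of all probe sets. The test over strains that the methods name called Slfn1 on the same values after Benjamini-Hochberg adjustment (adjusted p = 0.0482). Slfn1 signals were 329.4, 336.2, 361.3, 480.8 and 506.7 in NOD mice and 344.6, 366.8, 446.8, 447.4 and 453.0 in NON mice, against 549.6, 598.2, 614.3, 625.5 and 697.6 in C57 mice. Neither NOD nor NON mice overlapped C57 mice. Groups parted in this way, with the first lower, in 2.15% of all probe sets for NOD minus C57 and in 1.84% for NON minus C57. The log2 differences were -0.62 ± 0.18 for NOD minus C57 (SE, adjusted p = 0.123) and -0.58 ± 0.18 for NON minus C57 (SE, adjusted p = 0.22), both in limma. NOD minus NON was -0.04, with a 95% interval of -0.42 to 0.33. In the same mice the T cell marker sum was 6197 to 7780 in NOD and 4232 to 5193 in NON mice, against 6747 to 9272 in C57 mice.

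The second question was how the genes differed between the ages within a strain. None of the 11 probe sets was called in NOD (0.0157% of all probe sets called), in NON (0.0601%) or in C57 mice (0.107%, limma). At an unadjusted p below 0.05 there were 3, 3 and 4 of them, against 7.49%, 11.1% and 8.22% of all probe sets. Slfn1 and Slfn8 were among them in all 3 strains, each with its higher mean at 4 weeks. In NON mice Slfn1 signals were 344.6 to 453.0 at 4 weeks, against 118.8 to 235.3 at 2 weeks. The 2 ages did not overlap, and the ratio of means was 2.49. Slfn8 signals in NON mice were 343.4, 444.6, 464.2, 527.3 and 536.4 at 4 weeks, also above all of the 122.5 to 247.3 at 2 weeks. The log2 differences, 4 weeks minus 2 weeks, were 1.30 ± 0.23 for Slfn1 (SE, 95% interval 0.79 to 1.81, adjusted p = 0.0728) and 1.33 ± 0.23 for Slfn8 (SE, 95% interval 0.82 to 1.84, adjusted p = 0.0671), both in limma. Both probe sets passed an adjusted p of 0.05 when 430A and 430B were fitted separately (adjusted p = 0.0226 for Slfn1 and 0.0213 for Slfn8, limma), when all 30 mice were fitted together (adjusted p = 0.00147 and 0.00715) and with a pseudocount of 32 (adjusted p = 0.0489 and 0.0443). Slfn1 stayed uncalled in 18 of 21 alternatives and Slfn8 in 17. Without the mice of a Gapdh ratio over 2 the log2 differences were 1.39 for Slfn1 and 1.26 for Slfn8 (adjusted p = 0.3 and 0.308, limma). The 8 T cell markers had log2 differences above 0 in every strain, with medians of 0.65 in NOD, 1.08 in NON and 0.49 in C57 mice, and 0 of them were called. Their part in the age differences of Slfn1 and Slfn8 was not tested.

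In NOD mice Slfn1 averaged 402.9 at 4 weeks and 223.1 at 2 weeks, without overlap, with a log2 difference of 0.83 ± 0.22 (SE, adjusted p = 0.436, limma). Slfn8 signals in NOD mice were 313.1, 321.3, 328.0, 529.9 and 633.3 at 4 weeks, against 193.4, 222.6, 229.5, 278.7 and 311.2 at 2 weeks. These parted narrowly, and the log2 difference was 0.72 ± 0.26 (SE, adjusted p = 0.584, limma). In C57 mice Slfn1 was 0.56 ± 0.19 higher by log2 difference at 4 weeks (SE, adjusted p = 0.455, limma), with the lowest 4-week mouse at 549.6 and the highest 2-week mouse at 538.0. Slfn8 differed by 0.72 ± 0.29 in C57 mice (SE, adjusted p = 0.537, limma), and its ages overlapped. Groups with all 4-week mice higher made up 2 of 11 Schlafen probe sets in NOD, 2 in NON and 1 in C57 mice, against 0.763%, 1.67% and 0.88% of all probe sets. Slfn2, needed for T cell quiescence, had log2 differences of 0.33 ± 0.28 in NOD, 0.44 ± 0.27 in NON and 0.42 ± 0.31 in C57 mice (SE, adjusted p = 0.841, 0.6 and 0.795, limma).

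**Figure D3:**
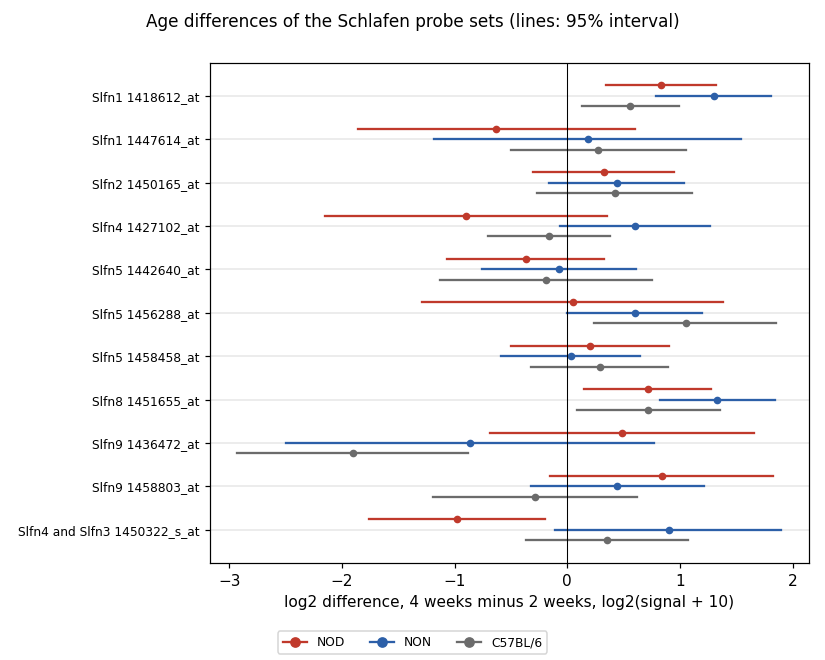
Log2 differences of 4 weeks minus 2 weeks, on the log2(signal + 10) scale, for the 11 tested Schlafen probe sets in NOD, NON and C57BL/6 mice; points are estimates and lines are 95% intervals. Slfn1 1418612_at and Slfn8 1451655_at have intervals above 0 in every strain, highest in NON mice at 1.30 and 1.33, and no point passed an adjusted p of 0.05.

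Whether the age differences were unequal between strains was tested with the interaction of age and strain over all 30 mice. None of the 11 Schlafen probe sets was called (0.00261% of all probe sets called), and 3 had an unadjusted limma p below 0.05, against 6.90% of all probe sets. For Slfn1 the age difference in NON mice exceeded that in C57 mice by 0.74 ± 0.28 on the log2 scale (SE, 95% interval 0.16 to 1.33, adjusted p = 0.682, limma). For Slfn8 the same term was 0.61 ± 0.36 (SE, 95% interval -0.13 to 1.35, adjusted p = 0.792, limma). The term for NOD minus NON was -0.48 ± 0.28 for Slfn1 (SE, adjusted p = 0.692) and -0.62 ± 0.36 for Slfn8 (SE, adjusted p = 0.683).

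Slfn4 and the probe set it shares with Slfn3 had age differences of opposite sign in NOD and NON mice, none of which passed the test. Slfn4 1427102_at signals in NOD mice were 38.9, 180.1, 334.8, 355.0 and 454.7 at 4 weeks, against 239.2 to 693.6 at 2 weeks. In NON mice they were 288.3, 293.2, 323.3, 419.9 and 452.2 at 4 weeks, against 111.8 to 390.1 at 2 weeks. The age term for NOD minus NON was -1.51 ± 0.59 (SE, adjusted p = 0.517, limma). The value of 38.9 belongs to NOD 4 weeks replicate 3, whose array correlated least with its own group (median r 0.739, against 0.824 or more in all other mice), and without this mouse the term was -0.96 ± 0.44 (SE, adjusted p = 0.549) and the Slfn4 age difference in NOD mice was -0.35 ± 0.35 in place of -0.90 ± 0.57 (SE). The shared probe set 1450322_s_at showed the same signs at signals mostly below 50. Its signals in NOD mice were 12.6, 13.4, 19.4, 30.6 and 46.7 at 4 weeks, against 30.4, 35.9, 49.1, 80.2 and 99.5 at 2 weeks. In NON mice they were 25.7, 51.0, 52.3, 57.4 and 87.9 at 4 weeks, against 5.0, 6.4, 37.9, 43.9 and 53.0 at 2 weeks. The age term for NOD minus NON was -1.88 ± 0.57 (SE, 95% interval -3.04 to -0.72, adjusted p = 0.417, limma), and -1.75 ± 0.59 without NOD 4 weeks replicate 3. At these low signals the term depended on the pseudocount, and was -2.56 with a pseudocount of 1 and -1.21 with a pseudocount of 32. The summed signal of 7 markers of neutrophils and their precursors, of 9 listed, was 27944 to 49560 at 4 weeks and 56509 to 119128 at 2 weeks in NOD mice, and 52869 to 79832 at 4 weeks and 49360 to 95428 at 2 weeks in NON mice. Their part in the Slfn4 values was not tested.

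Slfn5 and Slfn9, both long members, gave different pictures by probe set. Of the Slfn5 probe sets, 1456288_at averaged 338.1 ± 131.8 in C57 mice of 4 weeks and 159.3 ± 69.2 at 2 weeks (SD, n = 5 each), a log2 difference of 1.05 ± 0.36 (SE, adjusted p = 0.456, limma). In NON mice it differed by 0.60 ± 0.27 (SE, adjusted p = 0.451) and in NOD mice by 0.05 ± 0.61 (SE). NOD 4 weeks replicate 3 again held the lowest value, 37.2, and without it the NOD difference was 0.56 ± 0.47 (SE). The other Slfn5 probe sets, 1458458_at and 1442640_at, had age differences between -0.37 and 0.29 in the 3 strains. For Slfn9, 1436472_at had its lowest level in C57 mice of 4 weeks, with signals of 24.4, 30.1, 32.7, 44.9 and 53.4, against 50.1, 123.1, 176.5, 192.9 and 485.1 in C57 mice of 2 weeks. The log2 difference was -1.90 ± 0.46 (SE, 95% interval -2.93 to -0.88, adjusted p = 0.22, limma). It passed in only 1 of 21 alternatives, when C57 2 weeks replicate 3 was left out (-2.28, adjusted p = 0.0483, limma). In NOD mice of 4 weeks the same probe set read 60.1, 82.5, 131.9, 147.3 and 269.1, all above the C57 mice of that age; 1.75% of all probe sets parted in this way, and the log2 difference was 1.52 ± 0.54 (SE, adjusted p = 0.232, limma). The brighter Slfn9 probe set, 1458803_at, differed by -0.29 ± 0.41 between the ages in C57 mice (SE) and by 0.47 ± 0.43 in NOD minus C57 at 4 weeks (SE).

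Probe sets of 1 gene hardly varied together over the 30 mice, which share 6 groups of strain and age. Pearson's r of log2(signal + 10) was -0.01 between both Slfn1 probe sets and 0.07 between both Slfn9 probe sets. The dimmer Slfn1 probe set, 1447614_at, read between 6.7 and 164.4 and showed neither the strain nor the age pattern of 1418612_at: NON minus C57 at 2 weeks was 0.05 ± 0.48 (SE, 95% interval -0.97 to 1.06). The Slfn1 results therefore rest on 1418612_at alone, and sequence differences between the strains at its probes were not tested. Between genes, the highest r was 0.83 for Slfn1 and Slfn8, followed by 0.70 for Slfn1 and Slfn2 and 0.60 for Slfn2 and Slfn8, and the median over all 55 pairs of Schlafen probe sets was -0.01. With the group means taken out these 3 values were 0.34, 0.53 and 0.29.

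Cell type markers were set beside the Schlafen signals in the same way. Over 30 mice the T cell marker sum had an r of 0.84 with Slfn1, 0.77 with Slfn8 and 0.70 with Slfn2, and of 0.44, 0.40 and 0.58 once group means were removed. T cells were not the only list of this kind. The NK cell marker sum had an r of 0.61 with Slfn1, 0.73 with Slfn8 and 0.53 with Slfn2, and of 0.45, 0.56 and 0.53 within groups. For Slfn1 and Slfn8 the r was 0.63 and 0.70 with the pan-leukocyte markers (0.25 and 0.43 within groups) and 0.54 and 0.55 with the B cell markers (-0.01 and 0.21 within groups). The erythroid marker sum had an r of -0.54 with Slfn1, -0.42 with Slfn8 and -0.63 with Slfn2, and of -0.42, -0.25 and -0.52 within groups. Slfn4 had an r of -0.04 with the T cell markers and of 0.53 with the markers of neutrophils and their precursors, 0.56 within groups. The markers of megakaryocytes and platelets had an r of -0.73 with Slfn1, -0.74 with Slfn8 and -0.59 with Slfn2, and of -0.71, -0.55 and -0.48 within groups. The pan-leukocyte markers Ptprc, Coro1a and Laptm5 were kept on the arrays in all groups, with summed signals between 4867 and 19905.

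**Figure D4:**
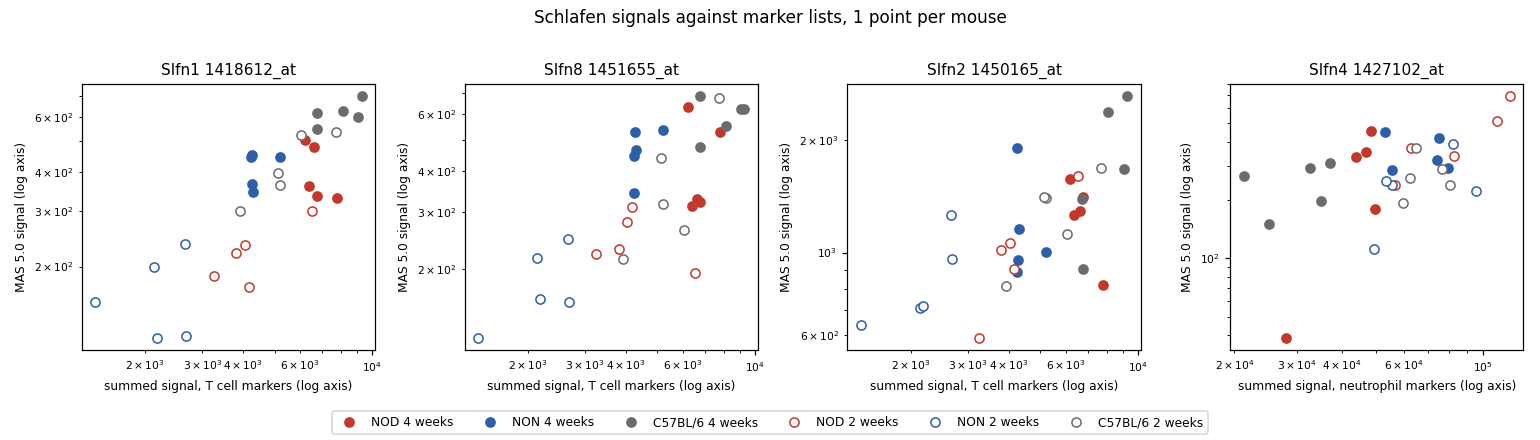
MAS 5.0 signals of Slfn1, Slfn8 and Slfn2 against the summed signal of T cell markers, and of Slfn4 against that of neutrophil and precursor markers (log axes), 1 point per mouse, filled for 4 weeks and open for 2 weeks. NON mice of 2 weeks have the lowest T cell sums, 1402 to 2670, and all lie low in Slfn1, at 118.8 to 235.3.

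The genes whose signals were most like each member's over the 30 mice, by Pearson's r, differed from member to member. These values pool 6 groups of unequal means, so the range of r with group means removed follows each set. For Slfn1 they were Ifit1bl1 (r 0.91), Ipcef1 (0.89), Ifi47 (0.89), Gimap4 (0.88) and Gimap3 (0.87), among which Ifi47 encodes an interferon-inducible GTPase and the Gimap genes encode GTPases of lymphocytes. Within groups r was 0.55, 0.65 and 0.57 for the first 3 and 0.31 and 0.25 for Gimap4 and Gimap3. For Slfn8 they were Gimap7 (0.89), Gimap4 (0.88), Satb1 (0.88), Samhd1 (0.86) and Dgka (0.86), with 0.59 to 0.80 within groups. Satb1 encodes a chromatin organizer of thymocytes and T cells, and Dgka a lipid kinase that restrains T cell receptor signals. For Slfn2 they were Gimap1 (0.79), Derl2 (0.78), Isy1 (0.77), Rnf146 (0.76) and Epsti1 (0.76), with 0.66 to 0.77 within groups. For Slfn4 they were Asprv1 (0.77), Smc6 (0.77), Ugp2 (0.75), Adam8 (0.75) and Lonp2 (0.74), with 0.73 to 0.77 within groups, and Adam8 encodes a metalloprotease of myeloid cells. The highest r was lower for Slfn5 1458458_at, with Slc23a4 (0.68, and 0.68 within groups), than for Slfn9 1458803_at, with Myh9 (0.77, and 0.78 within groups).

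Genes that type I interferon induces were followed as a list of 34, of which 28 were tested. None was called between the ages, while 26 of 28 in NOD, 22 in NON and 27 in C57 mice had log2 differences above 0, against 49.8%, 50.2% and 53.3% of all probe sets, with medians of 0.64, 0.39 and 0.55, against 0.00, 0.00 and 0.03 over all probe sets. The counts at an unadjusted p below 0.05 were 13, 11 and 14, against 7.49%, 11.1% and 8.22% of all probe sets (limma). Rtp4, an interferon-induced chaperone gene, had log2 age differences of 1.98 ± 0.28 in NOD, 1.40 ± 0.32 in NON and 1.38 ± 0.28 in C57 mice (SE, adjusted p = 0.0745, 0.151 and 0.124, limma). At 4 weeks, 3 of the 28 were called lower in NON than in C57 mice, namely Rtp4 (-1.30), Xaf1 (-1.19) and the nucleic acid sensor gene Zbp1 (-1.08), with adjusted p = 0.0249, 0.0318 and 0.033 in limma, against 0.473% of all probe sets called lower. Genes that hold lymphocytes in quiescence were a list of 17, of which 16 were tested. In NON minus C57 at 2 weeks 15 of the 16 had log2 differences below 0 and the median was -0.61, yet 0 passed and 9 had an unadjusted p below 0.05 in limma, against 13.9% of all probe sets. Between the ages all 16 lay above 0 in NON mice, with a median of 0.60, against 0.11 in NOD and 0.05 in C57 mice, again with 0 called and with 10 in NON, 0 in NOD and 2 in C57 mice at an unadjusted p below 0.05, against 11.1%, 7.49% and 8.22% of all probe sets. The 2 of 16 in C57 mice were near that share. The transcription factor gene Klf2, a keeper of T cell quiescence, was at -1.14 ± 0.27 in NON minus C57 at 2 weeks (SE, adjusted p = 0.0516, limma). Of 18 proliferation genes 17 were tested. None of them was called between the ages, with medians of -0.59 in NOD, -0.99 in NON and -0.86 in C57 mice and 9, 15 and 14 at an unadjusted p below 0.05, against 7.49%, 11.1% and 8.22% of all probe sets (limma).

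The genes around the cluster were read to see whether the whole region moved. Of the 20 genes that flank the Schlafen genes, 10 on each side, 17 were tested. None was called in the strain or age comparisons, and the median age differences were 0.04 in NOD, 0.08 in NON and 0.00 in C57 mice. The exception in size was Ccl5, a T cell and NK cell chemokine gene, with log2 age differences of 1.20 ± 0.27 in NOD, 2.23 ± 0.37 in NON and 0.99 ± 0.25 in C57 mice (SE, adjusted p = 0.292, 0.0646 and 0.242, limma). Within the cluster Slfn1 and Slfn8 are not adjacent: Slfn2 and the pseudogene Slfn10-ps lie between them. Slfn10-ps 1444350_at had age differences of 0.19 ± 0.38, 0.25 ± 0.41 and -0.65 ± 0.48 in NOD, NON and C57 mice (SE). Neither it nor Slfnl1, a more distant relative outside the cluster, was called in any comparison. The Slfn5 antisense transcript Slfn5os read 54.4 at most and was not tested.

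**Figure D5:**
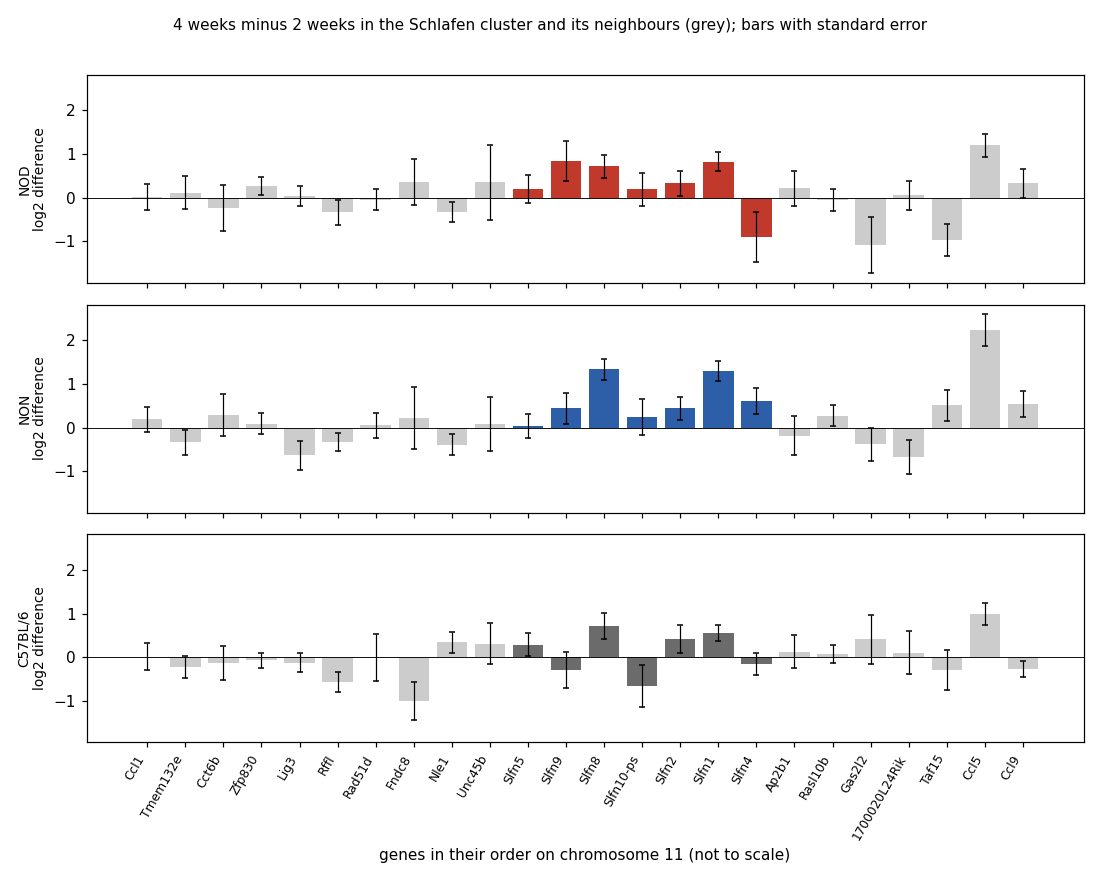
Log2 difference of 4 weeks minus 2 weeks for the Schlafen genes (coloured) and the tested genes on either side (grey), in their order on chromosome 11 and not to scale, in NOD, NON and C57BL/6 mice; error bars are standard errors. Slfn1 and Slfn8 stand at 1.30 and 1.33 in NON mice, above Slfn4 at 0.6 and Slfn2 and Slfn9 at 0.44, and Ccl5, at the right, is at 2.23.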

How the data were processed

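RNA of spleen leukocytes from 30 mice was hybridized by the authors to 1 430A and 1 430B array each, 60 arrays in all. The deposited intensity values are MAS 5.0 signals after global scaling. Their trimmed mean is 250 on every array, although the methods give a target of 100, which rescales all signals alike. Detection calls and probe sequences were not used here, and depth has no meaning for arrays, where the 5 mice of a group limit the precision. The array values of a mouse were joined, 64 control probe sets were left out, and log2(signal + 10) was fitted in limma 3.58.1 (R 4.3.3) for probe sets with a signal of at least 50 in at least 5 mice. Strains were compared over the 15 mice of an age, ages over the 10 mice of a strain, and the interaction over all 30, with Benjamini-Hochberg adjustment over all probe sets tested and a threshold of 0.05. Each mouse was taken as a separate animal, and p-values measure the spread between mice. Probe sets were named from the platform annotation, updated through gene identifiers (34945 with 1 gene, 932 with several and 9160 with none).

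Every Schlafen probe set was described. The main probe set of a gene was its brightest, and the 5 genes of highest Pearson's r over the 30 mice were named. The members and lists were chosen with earlier results of these data known. Alternatives covered the pseudocount, the filter, the normalization, the arrays fitted separately, the replicate block, 5 mice with a Gapdh 3′ to 5′ ratio over 2, each mouse left out, the methods' tests and a fit of all mice. The limma steps were tested on simulated data. Sequences are from RefSeq, GRCm38.p6.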

Additional observations from a re-analysis of the deposited data

Results flagged for a closer look

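Within a group of 5 mice, 5 of the 72 groups of Schlafen probe set, strain and age held 1 mouse far from the other 4 on the log2 scale, and about 1 in 20 groups, or 3.6, would do so by chance. In NON mice of 2 weeks, replicate 2 had a signal of 6.7 for Slfn1 1447614_at, against 65.1 to 108.7 in the others, and of 213.8 for Slfn5 1442640_at, against 88.8 to 95.8. This mouse also had the highest Gapdh 3′ to 5′ ratio, 3.997, a sign of degraded or shortened RNA, and its part in these values was not tested. In NON mice of 4 weeks, replicate 1, with a ratio of 3.153, had 196.4 for Slfn5 1442640_at, against 81.7 to 102.2. In NOD mice of 4 weeks, replicate 2 had 199.9 for Slfn5 1458458_at, against 419.0 to 524.8. In C57 mice of 4 weeks, replicate 5 had 35.8 for Slfn9 1458803_at, against 136.3 to 191.2. None of the 5 concerns Slfn1 1418612_at or Slfn8 1451655_at.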

How the results depend on the processing

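The count of Schlafen probe sets called stayed the same in 344 of 355 combinations of comparison and alternative. No difference with an unadjusted p below 0.05 changed sign in any alternative. The other differences were not recomputed under every alternative. Slfn1 in NON minus C57 at 2 weeks was called in all 25 alternatives, with log2 differences of -1.51 to -1.22 and adjusted p between 0.000178 and 0.0376. With all 30 mice in 1 fit the counts were 2 in NON minus C57 at 2 weeks (Slfn1 and Slfn8, Slfn8 at adjusted p = 0.0391), 1 in NOD minus C57 at 2 weeks (Slfn1) and 2 between the ages in NON mice. That last count, 0 in the report, was also 2 with a pseudocount of 32 and with the arrays fitted separately, and 1 with a signal of at least 100 in 5 mice (Slfn8, adjusted p = 0.0495). The methods' test called 1 probe set over strains at 4 weeks, where the report gives 0. At the methods' threshold of an unadjusted p of 0.001 it called 2 in NON mice between the ages, Slfn1 and Slfn8, and 0 after adjustment. The replicate block gave 0 in place of 1 over strains at 2 weeks (Slfn1, adjusted p = 0.0555) and changed no other count, with adjusted p-values of 0.361 for Slfn1 and 0.359 for Slfn8 between the ages in NON mice. Same-numbered mice of different groups are different animals. For 75 such pairs, r of their deviations from the group means ran from -0.149 to 0.187 (median 0.037), with 8 over 0.1. For 300 pairs of different numbers it ran from -0.194 to 0.187 (median -0.009), with 10 over 0.1. Whether a shared number stands for shared processing was not tested. With 1 mouse left out, the count over strains at 2 weeks ranged from 0 to 1, that between the ages in C57 mice from 0 to 1, and the other counts did not move. Median scaling moved the median of all probe sets in NOD minus C57 at 2 weeks to -0.07, against 0.07, and Slfn1 there to -1.04, against -0.89; relative to those medians the difference kept its sign. The age term of 1450322_s_at for NOD minus NON, -1.88, ran from -2.56 to -1.21 over its alternatives. Dim probe sets such as 1450322_s_at and 1421644_at lie near the background, which the files give no measure of.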
